A study of Mus musculus with 13 samples.

Results

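The retinoid genes followed here through livers and kidneys are Retsat, Lrat, Rbp4, Aldh1a1, Aldh1a2, Cyp26a1, Cyp26b1, Rdh10 and Dhrs3. They were taken by symbol from a table of 22298 genes, and each of the 9 symbols matched 1 row. Retsat heads the set because its liver levels had already stood out between the oocyte origins. Its values in that comparison are therefore given as a description without a test, and the other members are its partners in the pathway. The mice were CD-1 (ICR) adults, an outbred stock, at 8 weeks of age. All came from oocytes fertilised in vitro and from cleaved embryos transferred to pseudopregnant females. The control oocytes were fresh, and the others had been vitrified by the Cryotop method, thawed and rested in culture medium before fertilisation. RNA from tissue blocks gave 13 libraries, with 3 livers and 3 kidneys of fresh origin and 3 livers and 4 kidneys of vitrified origin. The labels call them biological replicates and name no sex, litter or parent, so the p-values speak only of the spread among these libraries.

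Retinol, or vitamin A alcohol, leaves the liver bound to the carrier protein encoded by Rbp4. Lrat esterifies retinol for storage, which in the liver takes place mainly in stellate cells. Rdh10 oxidises retinol to retinaldehyde and Dhrs3 reduces retinaldehyde back to retinol. The aldehyde dehydrogenases Aldh1a1 and Aldh1a2 make retinoic acid, the form that activates nuclear receptors, and the cytochrome P450 enzymes Cyp26a1 and Cyp26b1 break it down. Retsat encodes retinol saturase, which converts retinol to a dihydroretinol, and it is known as a target of fat-sensing PPAR receptors in adipocytes.

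Upstream sequences are shown for 3 members: Retsat, whose liver groups did not overlap by origin, and the pair of retinoic acid hydroxylases, of which Cyp26a1 was called between organs and Cyp26b1 was not. Each covers the 250 bases before the RefSeq transcript start on the gene's strand, in the build GRCm38.p6, at chr6:72598352-72598601 for Retsat, chr19:37697558-37697807 for Cyp26a1 and chr6:84593811-84594060 for Cyp26b1 (minus strand). Capitals mark the word TATAAA and, on either strand, the word GGGCGG and a direct repeat with a spacer of 5 bases. The repeat is of the nuclear receptor half-site AGGTCA, allowing G as the leading letter and T as the third letter.
Retsat: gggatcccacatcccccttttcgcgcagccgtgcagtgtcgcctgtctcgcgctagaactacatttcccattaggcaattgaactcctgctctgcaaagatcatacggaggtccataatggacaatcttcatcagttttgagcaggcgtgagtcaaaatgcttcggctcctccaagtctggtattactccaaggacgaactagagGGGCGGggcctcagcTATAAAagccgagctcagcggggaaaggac
Cyp26a1: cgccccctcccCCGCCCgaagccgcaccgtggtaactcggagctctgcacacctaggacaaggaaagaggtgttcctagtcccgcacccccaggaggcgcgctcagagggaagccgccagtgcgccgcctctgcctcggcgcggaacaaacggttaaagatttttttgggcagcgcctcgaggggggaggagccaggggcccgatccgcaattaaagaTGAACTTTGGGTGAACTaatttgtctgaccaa
Cyp26b1: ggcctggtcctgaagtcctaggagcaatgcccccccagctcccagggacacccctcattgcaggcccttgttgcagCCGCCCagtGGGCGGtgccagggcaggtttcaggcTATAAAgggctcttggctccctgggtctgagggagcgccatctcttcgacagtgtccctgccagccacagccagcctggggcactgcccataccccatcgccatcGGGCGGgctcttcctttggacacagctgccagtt

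The Cyp26a1 window holds the repeat spaced by 5 bases on the opposite strand, as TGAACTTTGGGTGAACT, beginning 32 bases before the start. This arrangement is the textbook form of a retinoic acid response element. Of 32851 RefSeq promoter windows of the same kind, which also include 50 bases after the start, 0.0974% hold such a repeat in either orientation. The Retsat window holds TATAAA 30 bases before the start, a word present in 13.6% of windows, and GGGCGG 45 bases before it, present in 35.7%. None of the windows of the 8 members matched in this table holds a direct repeat spaced by 1 or by 2 bases, which 0.222% and 0.268% of all windows hold. The half-site AGGTCA by itself, in 16.3% of all windows, is in none of them either, and CCAAT, in 37.4%, is in those of Lrat, Rbp4, Aldh1a1, Aldh1a2 and Dhrs3. A match describes the letters of the window and not binding by a factor.

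Some features of the libraries touch the results below. Estimated counts added up to between 16073245 and 19964918 per library, so that 3 counts correspond to between 0.150 and 0.187 counts per 1000000 (CPM). Liver fresh 3, kidney fresh 3 and kidney vitrified 4 held at most 1.25 CPM summed over the Y-linked genes Ddx3y, Uty, Kdm5d and Eif2s3y, where the other 10 libraries held at least 137 CPM. Markers of the labelled organ were present in each library: the 10 hepatocyte markers added up to at least 73287 CPM in the livers, and the 10 proximal tubule markers to at least 16598 CPM in the kidneys. The 5 adipocyte markers stayed at or below 8.53 CPM in sum. TMM scaling, which corrects for libraries dominated by a few abundant transcripts, gave factors of 0.616 to 0.759 in liver and 1.26 to 1.57 in kidney. Against library totals it raises the median liver-to-kidney log2 difference over all genes by 0.99. In these bulk samples, fewer cells of a type and less RNA per cell cannot be told apart.

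Compared per transcript length, as FPKM, the order of the genes differed between the organs. In fresh livers Rbp4 led with 1444 ± 262 FPKM (SD, n = 3), followed by Aldh1a1 with 633 ± 76.2 FPKM. Dhrs3 (75.9 ± 14.5 FPKM) and Retsat (74.8 ± 18.4 FPKM) came next and did not differ beyond their spread. Rdh10 lay at 5.82 ± 0.951 FPKM, Cyp26a1 at 4.38 ± 1.54 FPKM and Lrat at 2.17 ± 0.403 FPKM. Cyp26b1 (0.903 ± 0.918 FPKM) and Aldh1a2 (0.0600 ± 0.0458 FPKM) were lowest. The 9 genes had the same order in vitrified livers, where Dhrs3 lay at 57.6 ± 19.1 FPKM and Retsat at 34.3 ± 10.5 FPKM.

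In the kidney Retsat and Dhrs3 were the most abundant of the set. Fresh kidneys held 68.4 ± 17.8 FPKM (SD, n = 3) of Retsat and 65.6 ± 18.1 FPKM of Dhrs3, levels that overlapped. Rdh10 followed with 12.5 ± 2.36 FPKM. The carrier and the liver dehydrogenase were low there, with 4.79 ± 2.91 FPKM of Rbp4 and 4.80 ± 2.37 FPKM of Aldh1a1. Aldh1a2 (2.42 ± 2.63 FPKM) and Cyp26b1 (2.06 ± 1.67 FPKM) exceeded their liver means, and Cyp26a1 (0.130 ± 0.0557 FPKM) and Lrat (0.0867 ± 0.116 FPKM) were near 0. The order differed in part in the vitrified kidneys, with Dhrs3 (73.6 ± 23.0 FPKM, n = 4) before Retsat (68.0 ± 25.1 FPKM).

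**Figure D1:**
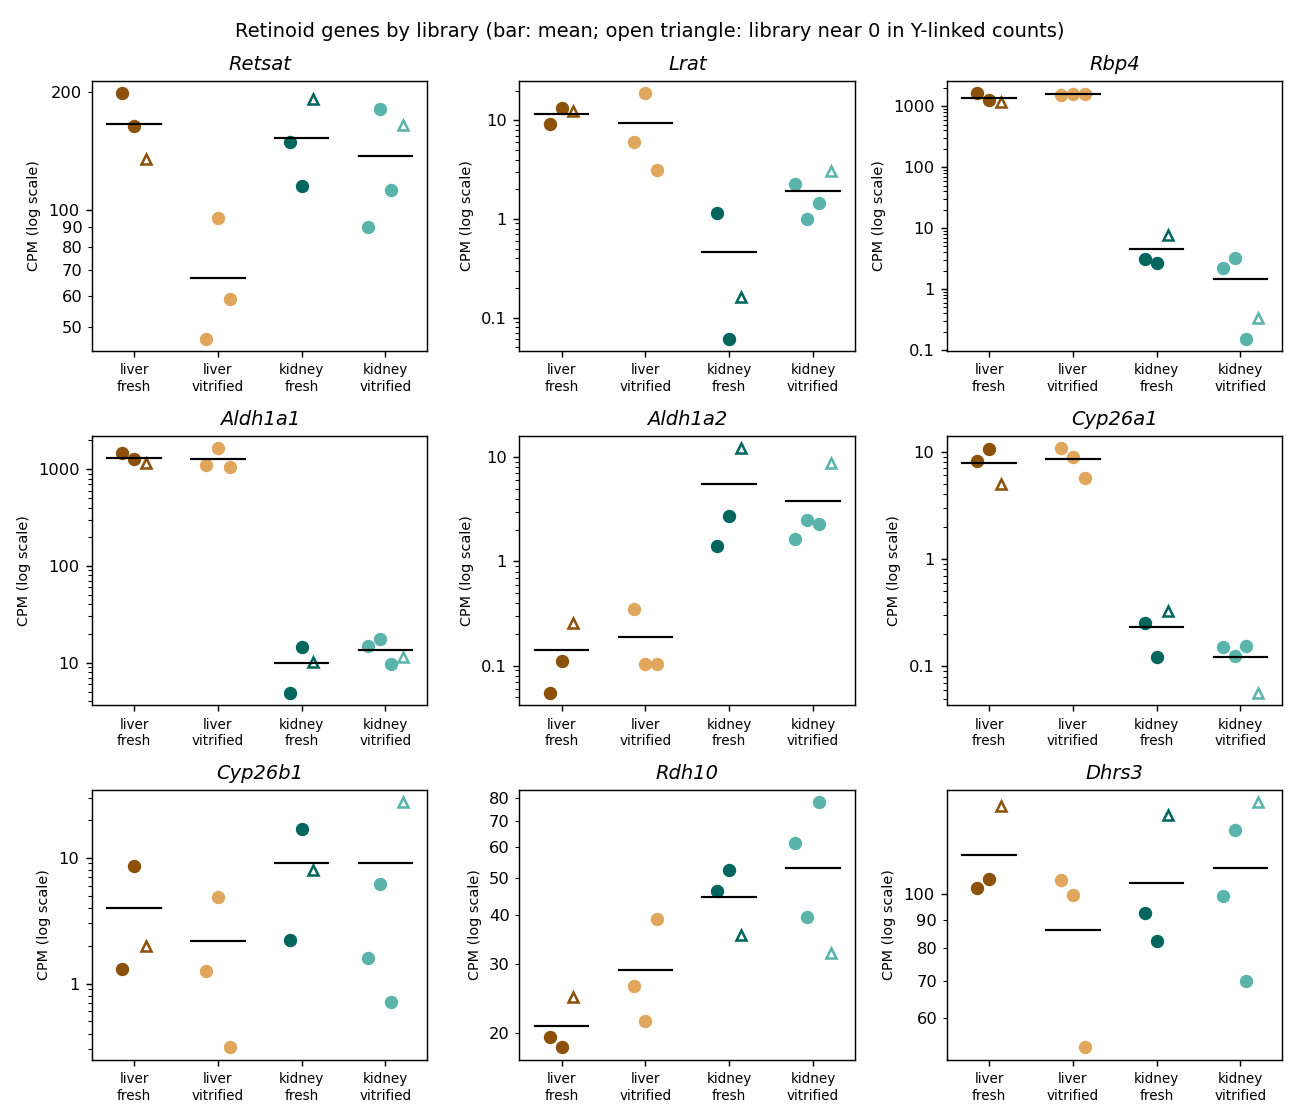
CPM of each of the 9 genes (log axis, with its own range in each panel) in the 13 libraries by group. Points are libraries, bars are group means, and open triangles are the 3 libraries at or below 1.25 CPM in Y-linked genes. The fresh and vitrified livers are separate in Retsat and overlap in the other panels, and Rbp4, Aldh1a1, Cyp26a1 and Lrat are higher in every liver than in any kidney.

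The first comparison set livers of vitrified origin against those of fresh origin. Retsat measured 199, 164 and 135 CPM in liver fresh 1, 2 and 3, and 46.6, 95.0 and 58.9 CPM in liver vitrified 1, 2 and 3. Each vitrified liver lay below each fresh one. The log2 fold change by edgeR was -1.29 ± 0.27 (SE), a 2.45-fold lower fitted level. No p is given, because Retsat was chosen on this contrast. The estimate lay between -1.53 and -1.10 over 16 other settings, and at -1.42 once liver fresh 3, with few Y-linked counts, was left out.

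Of the 12335 liver genes tested, 0% were called at an adjusted p under 0.05 by edgeR's quasi-likelihood test, the 8 members tested included. For Retsat, chosen on this contrast, neither a call nor its absence is used as a result, and the settings differed in it. DESeq2 called 10 genes, and edgeR gave 390 genes (3.16%) a p under 0.05 before adjustment. The groups did not overlap in CPM for 7.61% of the genes tested and for 1 of the 8 members, Retsat. Aldh1a2 did not pass the filter on low counts in the liver. The median log2 fold change of the 8 members was -0.17, with 4 above 0 and 4 below, against 0.01 over all genes tested.

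The enzymes that interconvert retinol and retinaldehyde had opposite signs in the livers. Rdh10 measured 19.5, 18.4 and 24.8 CPM in the fresh livers, and the vitrified ones held 26.4, 21.5 and 39.2 CPM. The groups overlapped through vitrified 2, and the log2 fold change was 0.55 ± 0.31 (SE), which became 0.16 without liver vitrified 3, the highest library. Dhrs3 measured 103, 107 and 144 CPM in the fresh livers, and the vitrified ones held 106, 99.8 and 53.2 CPM (-0.44 ± 0.25). Liver vitrified 3 was thus both the highest in Rdh10 and the lowest in Dhrs3.

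Lrat varied more among the vitrified than among the fresh livers. It measured 9.14, 13.2 and 12.4 CPM in fresh livers against 6.01, 18.8 and 3.15 CPM after vitrification, so that the vitrified group spanned the fresh one. The log2 fold change was -0.35 ± 0.54 (SE), -1.24 without liver vitrified 2 and 0.03 without liver vitrified 3. The 13 markers of stellate cells and fibroblasts followed Lrat in part. Their sum was 183 CPM in liver vitrified 1, 534 CPM in vitrified 2 and 276 CPM in vitrified 3, against 282 to 451 CPM in the fresh livers. Vitrified 2 was thus highest in the sum as in Lrat, but vitrified 1 and not vitrified 3 was lowest. Of the 13 markers, 6 were lowest in vitrified 1, 6 in vitrified 3 and 1 in vitrified 2, and 7 were highest in vitrified 2. Hand2 (1.19 CPM) and Lhx2 (0.0517 CPM) were among those lowest in vitrified 3, and Dcn (72.9 CPM) and Hgf (2.93 CPM) among those lowest in vitrified 1. The part of stellate cell content in the Lrat values was not tested.

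**Figure D2:**
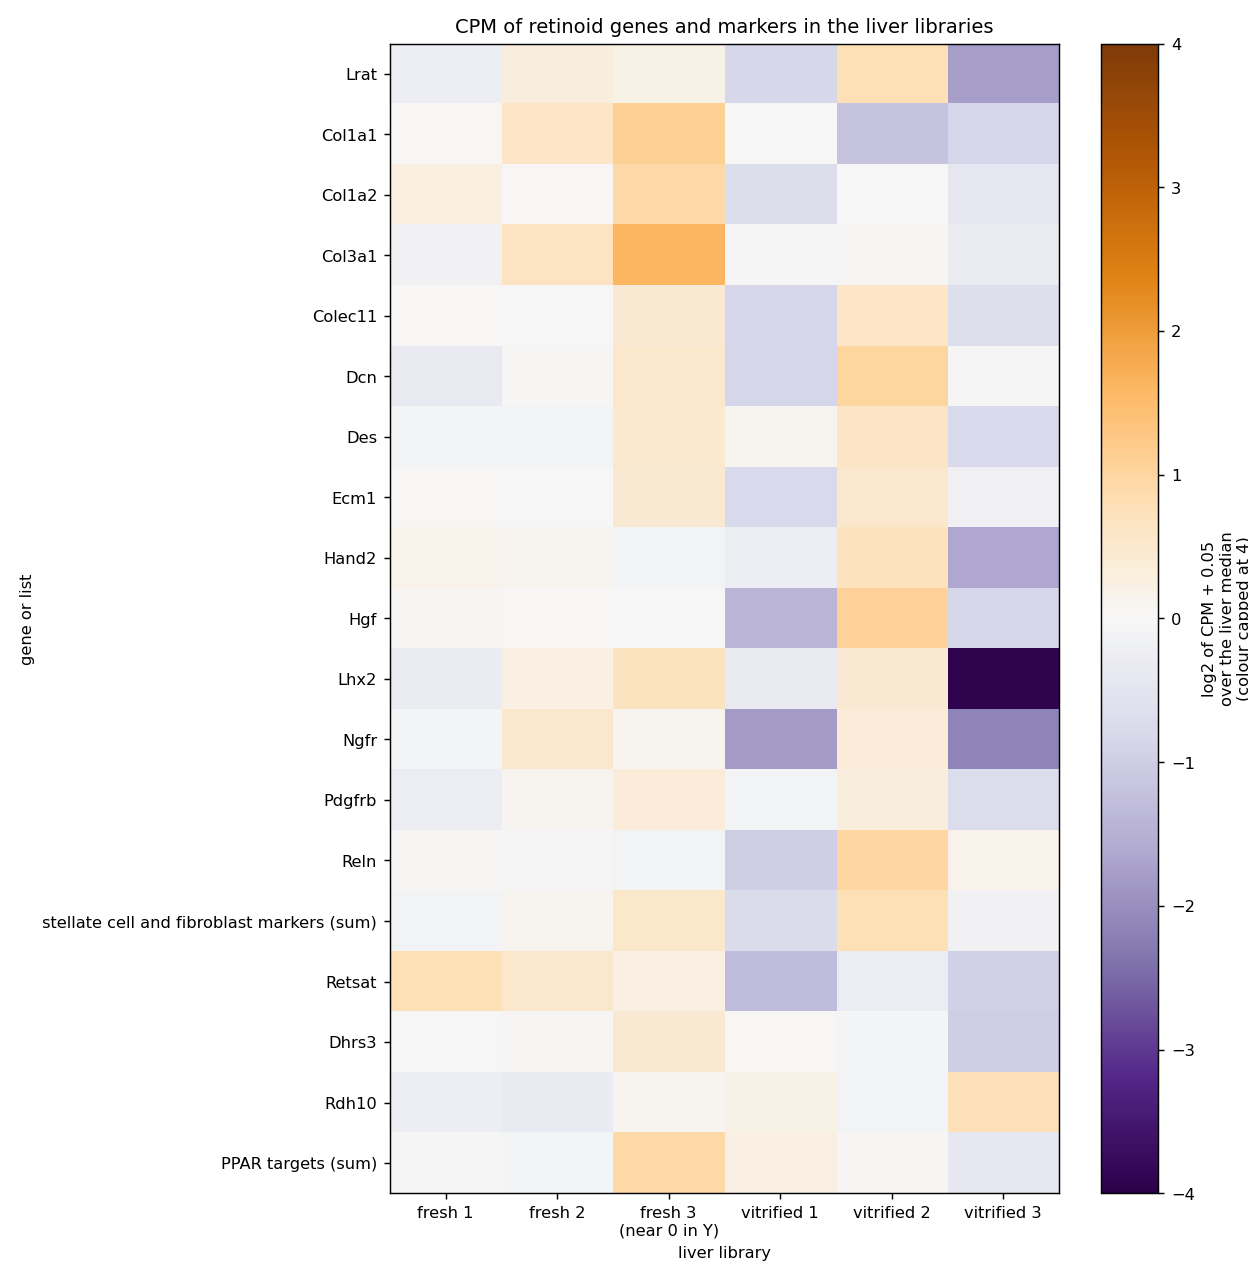
Levels in the 6 liver libraries (columns) of Lrat, the 13 stellate cell and fibroblast markers with their sum, and other rows chosen after their values were seen, as log2 of CPM + 0.05 over the liver median of that row; orange is above and purple below the median, with colour capped at 4. Lrat is lowest in vitrified 3, the markers are lowest in vitrified 1 (6 of 13), vitrified 3 (6) or vitrified 2 (1), and Retsat is below its median in the 3 vitrified libraries.

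The carrier and the retinoic acid enzymes of the liver overlapped between the origins. Rbp4 measured 1631, 1267 and 1165 CPM in fresh livers against 1527, 1582 and 1596 CPM after vitrification, groups that overlapped through fresh 1 (log2 fold change 0.25 ± 0.24, SE). The means of Aldh1a1 were 1300 ± 156 CPM (SD, n = 3) in fresh livers and 1286 ± 338 CPM after vitrification (0.003 ± 0.230). Those of Cyp26a1 were 7.85 ± 2.76 and 8.47 ± 2.61 CPM (0.14 ± 0.33). Cyp26b1 ranged over 27.7-fold among the 6 livers, from 0.310 CPM in vitrified 3 to 8.59 CPM in fresh 2 (-0.90 ± 1.01). Aldh1a2 gave between 1 and 7 counts per liver library.

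Among other genes of the pathway, none was called in the liver either. Of 6 carrier and uptake genes tested, 5 lay below 0 (median log2 fold change -0.44). All 6 nuclear receptors for retinoids, Rara, Rarb, Rarg, Rxra, Rxrb and Rxrg, lay below 0 (median -0.28), as did 5 of 8 genes known to respond to retinoic acid (median -0.39), a list that holds 5 of the 9 members. Over all 12335 genes tested, 6021 lay below 0. Marker lists of cell types did so too, with 10 of 10 proximal tubule markers (median -0.36) and 7 of 7 Kupffer cell and macrophage markers (-0.33). Of 10 hepatocyte markers 4 lay below 0, and all 12 cytosolic ribosomal protein genes lay above 0 (0.27). The genes with the smallest p on the lists of carriers, esters, carotenoids, dehydrogenases, synthesis and receptors did not pass. Lrp2, an endocytic receptor for retinol-binding protein, lay at 6.76 ± 0.915 CPM in fresh livers against 4.51 ± 0.541 CPM after vitrification. Fabp5, a fatty acid and retinoic acid carrier, lay at 62.4 ± 60.3 and 17.9 ± 6.77 CPM. The 18 PPAR targets, a list chosen with its earlier result in these livers known, had a median of -0.48 with 18 below 0, and -0.04 without liver fresh 3. That library held 14808 CPM of them in sum, of which Fabp1 alone gave 5343 CPM, against 5911 to 9334 CPM in the other 5 livers. The sum and Retsat did not have the same order over the livers. The part of PPAR activity in the Retsat values was not tested.

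In the kidney the origins were compared in libraries that took no part in the choice of Retsat. Retsat measured 149, 115 and 193 CPM in kidney fresh 1, 2 and 3, and 90.0, 181, 112 and 165 CPM in kidney vitrified 1 to 4. The groups overlapped widely. The log2 fold change was -0.12 ± 0.27 (SE), with an adjusted p of 0.999 by edgeR, and it changed sign without kidney vitrified 1 (0.04). Of 14018 kidney genes tested, 0% were called by edgeR (10 by DESeq2, and 288, or 2.05%, at p under 0.05 before adjustment), and none of the 8 members tested was. The groups did not overlap for 2.89% of the genes tested and for 0 of the 8 members. Over all 14441 genes the test of whether the origin difference itself differed between liver and kidney called 0% (edgeR, with 275, or 1.9%, at p under 0.05 before adjustment, and 0 by DESeq2). For Retsat this is no independent test, because its liver values entered the choice.

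Lrat was the member with the smallest p in the kidney and did not pass. It measured 1.16, 0.0614 and 0.163 CPM in the fresh kidneys, of which the last pair correspond to 1 and 3 counts. The vitrified kidneys held 2.25, 0.995, 1.44 and 3.06 CPM. Kidney fresh 1 lay within the vitrified range. The log2 fold change was 1.95 ± 0.82 (SE; edgeR adjusted p = 0.999), 4.04 without kidney fresh 1 and 0.32 on the log2(FPKM + 1) scale.

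Rbp4 in the kidney followed a liver transcript. It measured 3.13, 2.70 and 7.63 CPM in fresh kidneys against 2.204, 3.17, 0.154 and 0.340 CPM after vitrification (log2 fold change -1.52 ± 0.87, SE; edgeR adjusted p = 0.999). The low pair, kidney vitrified 3 and 4, also held the least Alb, the albumin gene of hepatocytes, with 1.28 and 10.5 CPM. The other 5 kidneys held between 116 and 306 CPM of Alb, with the highest value in kidney fresh 3, which was highest in Rbp4 as well. Ttr, which encodes the partner of the retinol carrier in plasma, did not share this order, with 529 CPM in the first of that pair against 0.850 CPM in the other. Whether liver RNA or reads contributed to Rbp4 in the kidney libraries was not tested.

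The other members overlapped between the kidney groups, each with an adjusted p of 0.999 by edgeR. The means for fresh and then vitrified kidneys were 44.7 ± 8.47 (SD, n = 3) and 52.8 ± 20.9 CPM (n = 4) for Rdh10, 105 ± 30.0 and 111 ± 33.8 CPM for Dhrs3, and for Aldh1a1 9.84 ± 4.88 and 13.4 ± 3.49 CPM. Cyp26b1 spanned 0.719 to 27.6 CPM, with its lowest and highest values both in the vitrified group, and Cyp26a1 did not pass the filter, with 1 to 6 counts per kidney library. Of the other pathway genes, Cubn and Lrp2, endocytic receptors of the proximal tubule that recover filtered vitamin carriers, had the smallest p on the lists of carriers, esters, carotenoids, dehydrogenases, synthesis and receptors and did not pass. Cubn lay at 734 ± 75.3 CPM in fresh kidneys against 498 ± 139 CPM after vitrification, and Lrp2 at 3125 ± 310 and 2230 ± 400 CPM, in each case without overlap. Of 7 carrier and uptake genes 6 lay below 0 (median -0.25, against 0.02 over all genes tested). Tgm2, a transglutaminase gene among those known to respond to retinoic acid, lay at 0.38 ± 0.16 (log2 fold change, SE; edgeR adjusted p = 0.999) and is named after its value was seen.

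Within both kidney groups Aldh1a2 varied widely. This dehydrogenase gene, which supplies retinoic acid to many embryonic tissues, measured 1.41, 2.70 and 12.3 CPM in kidney fresh 1, 2 and 3, and 1.65, 2.49, 2.31 and 8.72 CPM in kidney vitrified 1 to 4. The high pair, fresh 3 and vitrified 4, are the kidney libraries near 0 in Y-linked counts. The log2 fold change between origins was -0.50 ± 0.73 (SE), 0.75 without kidney fresh 3 and 0.09 without that pair. The same pair were highest in Stra6, the membrane receptor for retinol-binding protein, with 9.53 and 9.97 CPM where the other 5 reached at most 2.24 CPM. They were also highest in Aldh1a3, with 21.7 and 24.0 CPM against at most 16.2 CPM, in Dhrs3, with 139 and 146 CPM against at most 130 CPM, and in Rarb, with 8.28 and 13.8 CPM against at most 7.42 CPM. In Rdh10 they were lowest, with 35.6 and 32.1 CPM against at least 39.7 CPM.

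Cell type markers moved with the same pair. The 5 podocyte markers added up to 718 CPM in the fresh library of the pair and 966 CPM in the vitrified, against 288 to 346 CPM in the other 5 kidneys. The 10 proximal tubule markers added up to 22943 and 16598 CPM, against 40831 to 43662 CPM. Without Kap, an androgen-dependent transcript that makes up much of that sum, the other 9 markers added up to 13236 and 11748 CPM in the pair. The other 5 kidneys held 12206 to 15620 CPM of these 9, so that kidney fresh 3 lay within their range and kidney vitrified 4 just below it. The part of these differences in the values of Aldh1a2, Stra6 and Rdh10 was not tested.

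**Figure D3:**
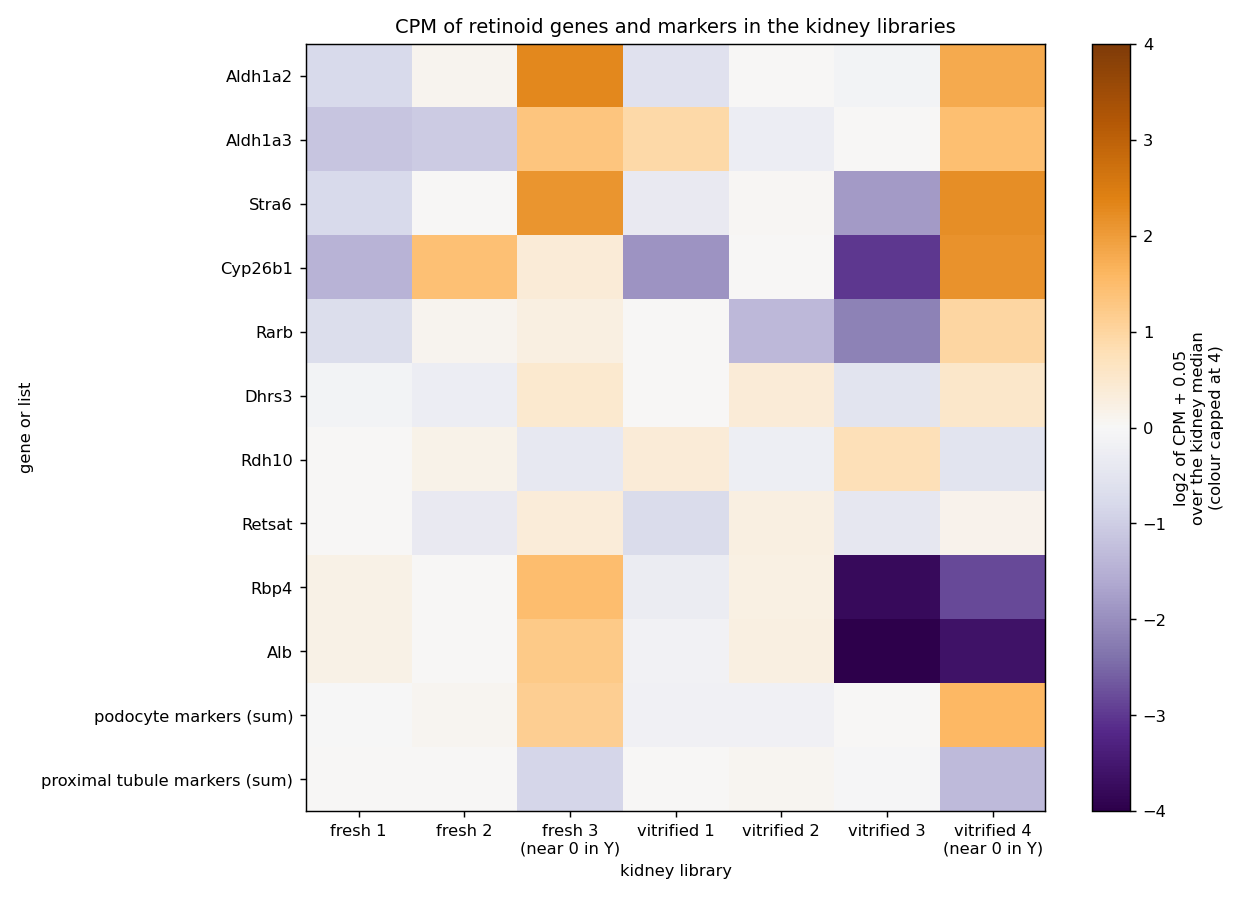
Levels in the 7 kidney libraries (columns) of retinoid genes, Alb and the sums of the podocyte and proximal tubule markers (rows), as log2 of CPM + 0.05 over the kidney median of that row; orange is above and purple below the median, with colour capped at 4. The rows were chosen after their values were seen. Aldh1a2, Stra6 and the podocyte markers are highest in fresh 3 and vitrified 4, and Rbp4 and Alb are lowest in vitrified 3 and 4.

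Between the organs, Rbp4, Aldh1a1, Cyp26a1 and Lrat were higher in liver and Aldh1a2 was higher in kidney, in each origin. In animals of fresh origin, 6 of the 9 members were higher in the liver, 1 was lower and 2 did not pass, where 46.3% of 14441 genes were called by edgeR (3138, or 21.7%, higher and 3549, or 24.6%, lower in liver). In animals of vitrified origin, 4 were higher, 1 was lower and 4 did not pass, where 51.1% of genes were called (3447, or 23.9%, higher and 3934, or 27.2%, lower). With library totals in place of TMM the split over all genes became 1245 higher and 8735 lower in the fresh, and 1297 and 8943 in the vitrified animals. Lrat, Rbp4, Aldh1a1, Cyp26a1 and Aldh1a2 kept their direction and their call in each setting tried. Cyp26a1 and Aldh1a2 passed the filter on low counts only through the organ where they are high, which limits their calls. Without the libraries near 0 in Y-linked counts the counts were 6 higher and 1 lower in fresh, and 5 higher and 1 lower in vitrified animals, with Dhrs3 added.

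The storage and carrier genes were liver genes. Rbp4 lay between 1165 and 1631 CPM in the 6 livers and between 0.154 and 7.63 CPM in the 7 kidneys, and the fitted difference was 9.27 ± 1.03 (log2, SE; edgeR adjusted p = 8.26e-06) in fresh and 11.02 ± 0.97 (7.63e-07) in vitrified animals. Lrat was higher by 5.52 ± 0.83 (adjusted p = 0.000134) and 3.21 ± 0.65 (0.00118). The fresh value rests on kidneys with 1 and 3 counts and became 7.59 without kidney fresh 1, and the vitrified value became 2.31 without liver vitrified 2. No liver overlapped a kidney in either gene. For Lrat the gap was narrow, with 3.15 CPM in liver vitrified 3 against 3.06 CPM in kidney vitrified 4. Such separation in CPM was common over the 14441 genes. In fresh animals 1430 did not overlap with liver higher and 9734 with liver lower, and in vitrified animals 1175 and 8469.

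The dehydrogenases Aldh1a1 and Aldh1a2 differed between the organs in opposite directions. Aldh1a1 lay between 1065 and 1675 CPM in the livers and between 4.84 and 17.5 CPM in the kidneys, a difference of 8.04 ± 0.51 (log2, SE; edgeR adjusted p = 4.51e-08) in fresh and 7.54 ± 0.44 (1.55e-08) in vitrified animals. Aldh1a2 lay at or below 0.354 CPM in the livers and at or above 1.41 CPM in the kidneys (-4.14 ± 0.95, adjusted p = 0.00280, and -3.25 ± 0.88, 0.00748). Aldh1a1 shares 3.06% of its words of 50 bases with Aldh1a7, so that a small part of the reads of these genes is uncertain. Cyp26a1, whose upstream window holds the half-site repeat shown above, lay between 4.98 and 10.9 CPM in the livers and between 0.0566 and 0.327 CPM in the kidneys (5.99 ± 0.44, adjusted p = 1.50e-07, and 6.98 ± 0.42, 1.85e-08). Aldh1a2 did not pass the filter on low counts in the liver fit, nor Cyp26a1 in the kidney fit. Each entered the joint fit only through the organ where it is high, so its call was largely fixed in advance. In other settings the Cyp26a1 estimate fell as low as 2.21 in fresh and 2.39 in vitrified animals, and that of Aldh1a2 came to -1.42 and -1.17. Cyp26b1 did not pass in either origin (-0.22 ± 1.21, adjusted p = 0.899, and -1.03 ± 1.18, 0.489), and its sign turned without some libraries.

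For Retsat, Dhrs3 and Rdh10 the organ result depended on how the libraries were scaled, since their CPM in the organs lay close together. Retsat averaged 166 ± 32.2 CPM (SD, n = 3) in fresh livers and 152 ± 38.9 CPM (n = 3) in fresh kidneys. After TMM scaling these became 238 ± 48.1 and 109 ± 19.9 CPM, a log2 difference of 1.13 ± 0.30 (SE; edgeR adjusted p = 0.00794), and with library totals alone it was 0.12 (adjusted p = 0.740). In vitrified animals Retsat averaged 66.8 ± 25.1 CPM in liver and 137 ± 42.9 CPM (n = 4) in kidney, and 96.0 ± 29.0 and 101 ± 32.6 CPM after TMM scaling (-0.07 ± 0.28, adjusted p = 0.860). With library totals alone the vitrified livers were lower (-1.04, adjusted p = 0.00825). The fresh call was lost in 4 of 16 other settings, and vitrified livers were called lower in 4 of 17. The liver values in these tests are those on which Retsat was chosen, so the contrast between the origins follows from that choice and is no separate result.

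Dhrs3 was called higher in fresh livers (1.18 ± 0.28, SE; edgeR adjusted p = 0.00347). Dhrs3 lost this call in 4 of 16 other settings, among them library totals (0.17, adjusted p = 0.641). In vitrified animals it did not pass (0.61 ± 0.26, adjusted p = 0.0612), and with library totals its direction turned (-0.37). Rdh10 did not pass with TMM scaling in either origin (-0.13 ± 0.38, adjusted p = 0.811, and 0.13 ± 0.35, 0.778), and was called lower in liver with library totals (-1.10, adjusted p = 0.00831, and -0.86, 0.0209).

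**Figure D4:**
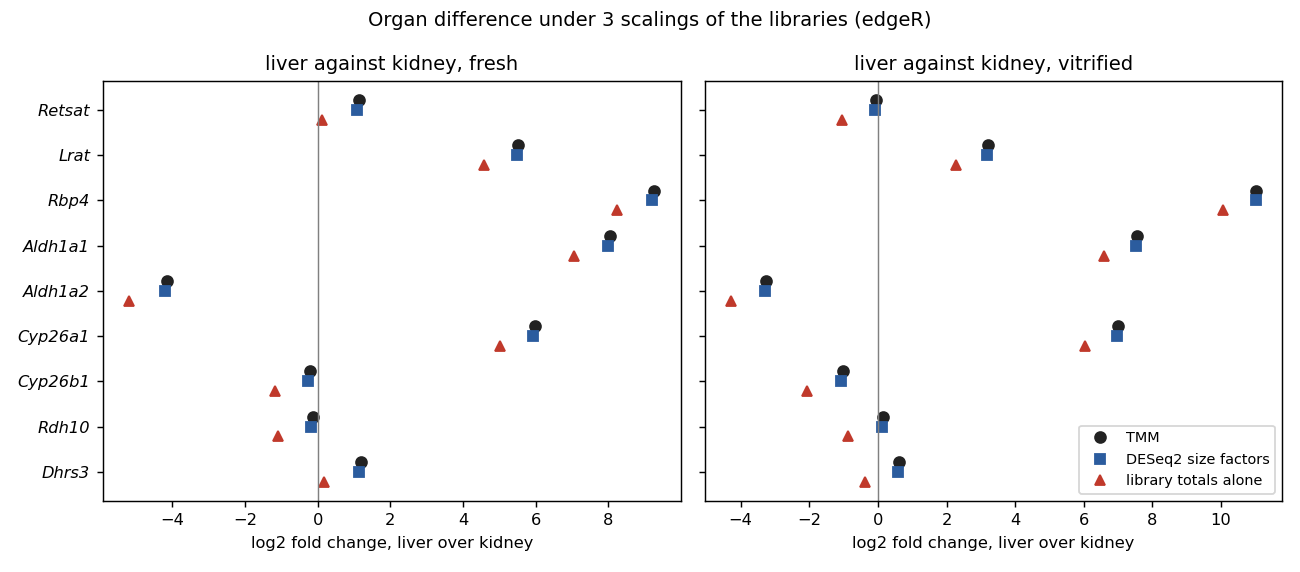
Log2 fold change of liver over kidney (horizontal axis) for the 9 genes in animals of fresh (left) and vitrified origin (right), by edgeR with TMM factors, DESeq2 size factors or library totals alone. Library totals move the median of all genes to the left by 0.99, and bring Retsat in fresh animals from 1.13 to 0.12 and leave Rbp4, Aldh1a1, Cyp26a1, Lrat and Aldh1a2 on their side of 0.

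Other genes of the pathway also differed between organs, and the counts that follow are with TMM scaling, to be read against the 46.3% and 51.1% of all genes called. The shares of the dehydrogenases, receptors and PPAR targets lie near these. With library totals they became 4 higher and 3 lower of 7 carrier and uptake genes in fresh and 2 and 3 in vitrified animals, 4 and 3 and then 4 and 4 of 10 ester genes, and 6 and 5 in each origin of 14 dehydrogenases. Of 6 receptors they became 2 and 2 and then 2 and 4, and of 18 PPAR targets 4 and 6 and then 4 and 8. Of 7 carrier and uptake genes tested, 4 were higher and 3 lower in the liver in each origin by edgeR. Stra6l, the retinol-binding protein receptor of liver and gut, was higher, at 99.3 ± 24.5 CPM (SD, n = 3) in fresh livers and 9.90 ± 4.20 CPM in fresh kidneys. Cubn and Lrp2 were lower, with 1.32 ± 0.146 against 734 ± 75.3 CPM and 6.76 ± 0.915 against 3125 ± 310 CPM. Stra6 was lower too, with at most 1 count in any liver library. Of 10 genes of ester storage and hydrolysis, 6 were higher and 1 lower in fresh animals and 4 and 1 in vitrified animals. They included the lipid droplet coat gene Plin2 (334 ± 314 against 42.1 ± 30.4 CPM in fresh animals) and, as the lower gene, the lipoprotein lipase gene Lpl (29.2 ± 12.4 against 1092 ± 878 CPM).

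Of 14 further retinol and retinal dehydrogenase genes, 7 were higher and 1 lower in fresh, and 8 and 1 in vitrified animals. Adh4 (87.2 ± 6.19 CPM, SD, n = 3) and Rdh9 (57.8 ± 34.6 CPM) were liver genes with at most 0.321 CPM on average in fresh kidneys, and Rdh13 was lower (6.82 ± 0.900 against 20.1 ± 4.96 CPM). The 2 cleavage and uptake genes called, Bco1, which splits beta-carotene, and Scarb1, were higher in the liver in each origin. Aldh1a7 was higher (137 ± 64.7 against 5.25 ± 0.813 CPM) and Aldh1a3 lower (0.430 ± 0.0961 against 9.93 ± 10.2 CPM). Adh4 and Rdh9 in the kidney fit, and Aldh1a3 and Stra6 in the liver fit, did not pass the filter on low counts. Their organ calls share the limit given for Cyp26a1. Of the 6 receptors Rxra and Rxrg were higher and Rarg was lower in each origin, and Rara, Rarb and Rxrb did not pass. In fresh animals Rarg lay close to the threshold (edgeR adjusted p = 0.0459). Without the libraries near 0 in Y-linked counts, 0 receptors were called lower there. Rxrg overlapped between the organs in vitrified animals. Of the PPAR targets 6 were higher and 2 lower in fresh, and 6 and 5 in vitrified animals.

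**Figure D5:**
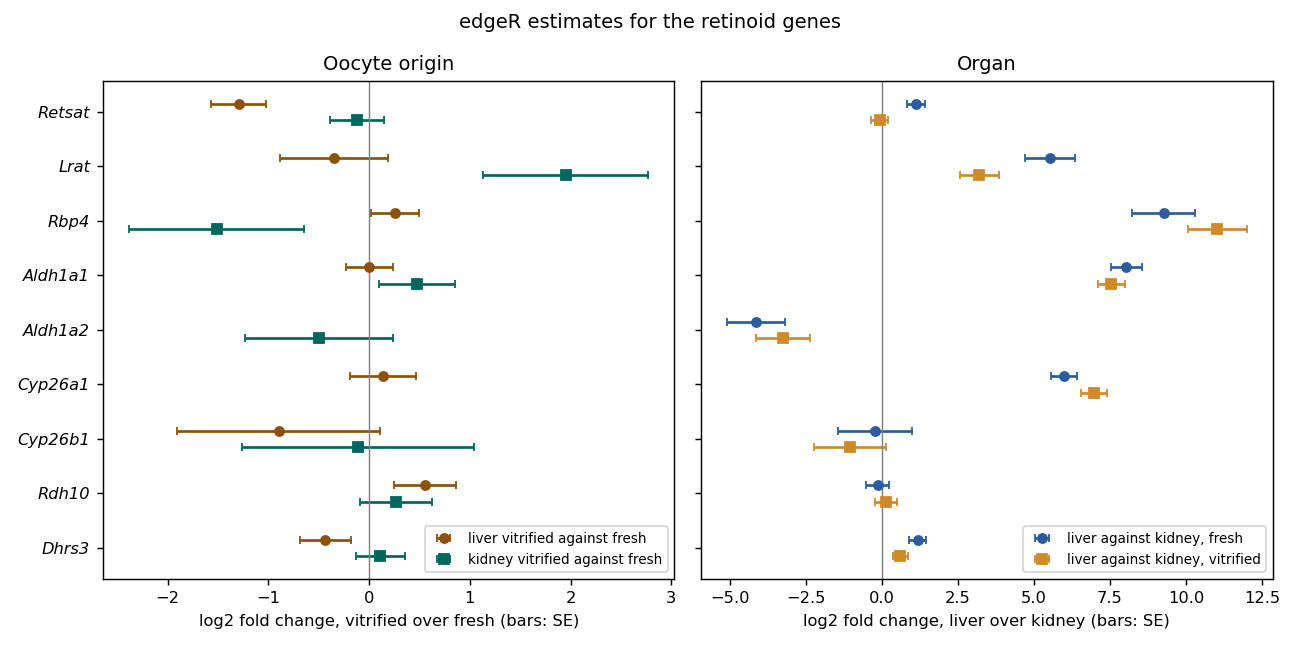
Log2 fold changes by edgeR with their standard errors for the 9 genes, on the left vitrified over fresh in each organ and on the right liver over kidney in each origin, with axes of different range. No point is shown where a gene did not pass the filter on low counts. Retsat lies at -1.29 in liver and -0.12 in kidney on the left, and Rbp4, at 9.27 and 11.02, is farthest from 0 on the right.

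Genes whose pattern was most like that of Retsat were sought by Pearson correlation of log2(CPM + 1) over the 13 libraries after subtraction of each organ's mean. This included 11099 genes with at least 1 CPM on average in each organ, and the libraries share their groups, so the values only describe them. As3mt, an arsenic methyltransferase gene, came first (r = 0.89; 0.95 within the 6 livers and 0.71 within the 7 kidneys). Dis3l, of RNA decay, followed with 0.85, then Fam210b with 0.84, Hs3st3a1, of heparan sulfate synthesis, with 0.82 and BC005624 with 0.82. The most opposed were Ufd1, of protein degradation (-0.84), Socs4 (-0.82) and Pak1ip1 (-0.80). The mean of As3mt was 16.0 CPM in fresh livers against 9.84 CPM after vitrification, and 45.6 and 48.0 CPM in the kidneys. Of the members, Dhrs3 had 0.54 and Rdh10 -0.72, and the others lay between -0.014 (Cyp26a1) and 0.42 (Cyp26b1). Subtracting organ means leaves in these values the liver difference between origins on which Retsat was chosen.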

How the data were processed

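RNA from liver and kidney blocks of 13 libraries was sequenced after removal of ribosomal RNA, per the labels' protocols. The submitters' processing notes name Bowtie2 2.2.8, HISAT2 2.4, StringTie 1.3.1, DESeq2 and the build GRCm39. The authors deposited, per the file headers, estimated counts and FPKM per gene and library. Fractions remained in 7.63 to 9.14% of these counts, which were rounded before fitting. CPM are rounded counts per 1000000 of the library total. The members and lists were chosen with earlier results of these data known.

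Each comparison was fitted over all genes with edgeR 4.0.16 (R 4.3.3), with TMM factors, its filter on low counts and quasi-likelihood tests with Benjamini-Hochberg adjustment, called under 0.05. The fits between origins hold the groups compared. The liver against kidney tests of each origin and the organ difference come from a joint fit of all 13 libraries. Alternatives were DESeq2 1.42.0, its size factors, library totals, other filters, limma 3.58.1 on log2(FPKM + 1) or log2(FPKM + 0.1), a replicate block, each library left out, and the 3 libraries near 0 in Y-linked counts left out. The tests were also run on simulated counts. How often they recover a true difference is not given here, so a comparison without called genes does not show that none differ. Of each list, the text names up to 2 called genes per direction with the smallest p. Where none was called, it names the 2 with the smallest p over the lists other than retinoic acid and PPAR targets. Predicted genes were not named among those most like Retsat. Genes named for single libraries were chosen after their values were seen.

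Liver and kidney libraries of fresh origin with the same number deviated together, with correlations of 0.235, 0.237 and 0.256. These numbers were used as pairs only in the replicate block. The main fits used no pairing and treated these libraries as independent. The labels do not say that they come from the same mouse. Promoter windows were matched by symbol in the RefSeq table of GRCm38.p6, in which 8 of 9 members were found, and no coordinate was converted.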

Additional observations from a re-analysis of the deposited data

Results flagged for a closer look

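Aldh1a2 in kidney vitrified 4 lay at 8.72 CPM, far from the 1.65 to 2.49 CPM of the other 3 kidneys of its group. The gap exceeded Dixon's critical value for 4 samples. The 9 members were examined in this group of 4, and chance flags about 1 in 20 such groups. Stra6 (9.97 CPM) and the podocyte marker sum (966 CPM) were also highest in kidney vitrified 4, and their part in the value was not tested.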

How the results depend on the processing

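The count of genes called by origin in liver, 0, became 10 with DESeq2, and 0 to 1 with each library left out (1 without liver fresh 1). In kidney, 0 became 10 with DESeq2, 2 with no filter and 3 with limma on log2(FPKM + 0.1), and 0 to 3 with each library left out (3 without kidney fresh 1). With each library left out, the organ counts (6687 in fresh and 7381 in vitrified animals) ranged over 5698 to 5985 and 6606 to 7282, and the organ difference of the origin effect stayed at 0 to 0. With the replicate block the counts were 0 in liver, 0 in kidney, 7013 and 7320 between organs and 0 for the organ difference, and the block changed no member's call in fresh animals. In vitrified animals Dhrs3 passed with it (0.69, edgeR adjusted p = 0.0144). Same-numbered samples did not all deviate together across origins, with correlations of -0.177 to 0.0685 in liver and -0.445 to 0.387 in kidney. The highest, 0.387, was between kidney fresh 1 and kidney vitrified 1. Nor did same-numbered samples deviate together in every organ pair of vitrified origin (0.0382 to 0.383).

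Signs turned as follows. In kidney, Cyp26b1 was 0.00483 with library totals, and Aldh1a2 0.0866 without the libraries near 0 in Y-linked counts. Between organs of vitrified origin, Rdh10 was -0.86 with library totals, -0.75, -0.81 and -0.75 with limma, -0.11 with the block and -0.0828 without those libraries. Dhrs3 was -0.37 with totals and -0.35, -0.36 and -0.35 with limma, and Cyp26b1 0.37 with the block and 0.45 without those libraries. With each library left out, kidney values ranged from -1.59 to 0.79 for Cyp26b1, -0.0256 to 0.27 for Dhrs3, -1.17 to 0.75 for Aldh1a2, -0.34 to 0.0383 for Retsat and -0.0384 to 0.49 for Rdh10. Liver values by origin ranged from -2.22 to 0.32 for Cyp26b1 and -0.14 to 0.12 for Aldh1a1. They ranged from -0.10 to 0.37 for Cyp26a1 and -1.24 to 0.03 for Lrat. Liver signs in the other settings are not listed here. Fresh organ values ranged, with each library left out, from -1.44 to 0.68 for Cyp26b1 and -0.33 to 0.0250 for Rdh10. Vitrified ones ranged from -0.31 to 0.15 for Retsat, -0.26 to 0.44 for Rdh10 and -2.36 to 0.45 for Cyp26b1. The limma settings on FPKM used no TMM factors, as with library totals. Apart from the shift by library totals, the cause was not tested. Depth limits Aldh1a2 in liver and Cyp26a1 and Lrat in kidney, which rest on few counts.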
